A study of Arabidopsis thaliana with 18 samples.

Results

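The comparison concerned control plants of the Arabidopsis thaliana accession Tsu-1 that had received 0.02% silwet, a surfactant that helps a spray to wet the leaf, and no salicylic acid (SA). Silwet arrays 97, 98 and 99 were set against silwet arrays 94, 95 and 96, paired by the replicate number in the titles (97 with 94, 98 with 95, 99 with 96), so that 6 of the 18 arrays of the series were compared. Array numbers define these triplets, the third and the second of the 3 that received silwet alone. The comparison was set up as one between successive harvests of control plants, but the labels gave no harvest time, tissue, plant age or growth condition, and the text therefore speaks of arrays. The same step after SA was taken from arrays 106, 107 and 108 against arrays 103, 104 and 105, which came from plants given 0.3 mM SA in 0.02% silwet. It shares no array with the silwet step. Each array held biotin-labelled total RNA on an Affymetrix ATH1 array, a short-oligonucleotide array on which a probe set measures a transcript, and the values below are log2 of the deposited signal. The labels do not say that arrays of a group came from separate plants, so each p-value rests on the scatter among arrays, and that scatter may be technical only. In RNA from whole samples, fewer cells of a type and less RNA per cell cannot be told apart.

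As background, plants sprayed with water or a surfactant pass through a short wound-like and touch-like response and then follow the daily cycle of light, sugar supply and the circadian clock. Mitochondria that are impaired signal to the nucleus, which raises transcripts of alternative respiration, small heat shock proteins, detoxifying transferases and transporters. When sugar runs low, as in the dark, plants raise transcripts of recycling and catabolism, including those of autophagy, in which ATG8 proteins coat the membrane that encloses cell contents for breakdown in the vacuole.

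The 6 arrays were not alike. Array 97 correlated with the other 17 arrays of the series at a mean of 0.880, the second lowest after SA array 100 (0.852), whereas arrays 98 and 99 stood at 0.938 and 0.922 and arrays 94, 95 and 96 at 0.924, 0.934 and 0.936. Array 98 correlated with array 95 at 0.975 and array 97 with array 94 at 0.862. Between arrays 97 and 94, 27.4% of 15922 tested probe sets differed by more than 1 log2 unit, against 2.9% between arrays 98 and 95 and 9.57% between arrays 99 and 96. The leaf marker RCA, which activates Rubisco, was bright at 10.70, 11.44 and 11.33 on arrays 97, 98 and 99, against 11.64, 11.75 and 11.90 on arrays 94, 95 and 96. The root marker PYK10, a beta-glucosidase, had 6.86, 7.64 and 6.76, against 6.85, 7.31 and 7.90, and the groups overlapped. Another root marker, LBD16, had 3.36, 3.32 and 3.39, against 3.93, 4.85 and 4.84. No named probe set carried the fixed markers of flower, pollen or seed. These levels name no tissue, and their part in the results was not tested.

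By limma with the replicate number as a block, 11 of 15922 probe sets differed at an adjusted p under 0.05. Of these, 4 were higher (0.0251%) and 7 lower (0.044%). Before adjustment, 1487 probe sets were higher (9.34%) and 2230 lower (14%) with p under 0.05. The median difference over all tested probe sets was -0.08. Without array 97 limma called 0, with 783 higher (4.92%) and 880 lower (5.53%) before adjustment and a lowest adjusted p of 0.0713. Without the replicate block it again called 0, with 2169 before adjustment and a lowest adjusted p of 0.0558. At the same adjusted threshold limma called 1539 probe sets without array 98 and 1611 without SA array 100, which enters through the shared estimate of spread.

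Gene length ran through the step. Over 8638 probe sets of nuclear genes with a known genomic length, the difference between paired arrays correlated with length at a Spearman rho of -0.60 for array 97 against 94, -0.08 for array 98 against 95 and -0.42 for array 99 against 96. This is a description across genes, which share the array and its RNA. The genes were cut into 5 classes of length. Those of the shortest class (up to 1540 bp) had a median difference of 0.59 on array 97, 0.03 on array 98 and 0.24 on array 99. Those of the longest class (3502 bp and more) had -1.0, -0.04 and -0.45. Transcripts of short genes were thus higher and those of long genes lower on arrays 97 and 99, while the pair of arrays 98 and 95 showed little trend.

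**Figure D1:**
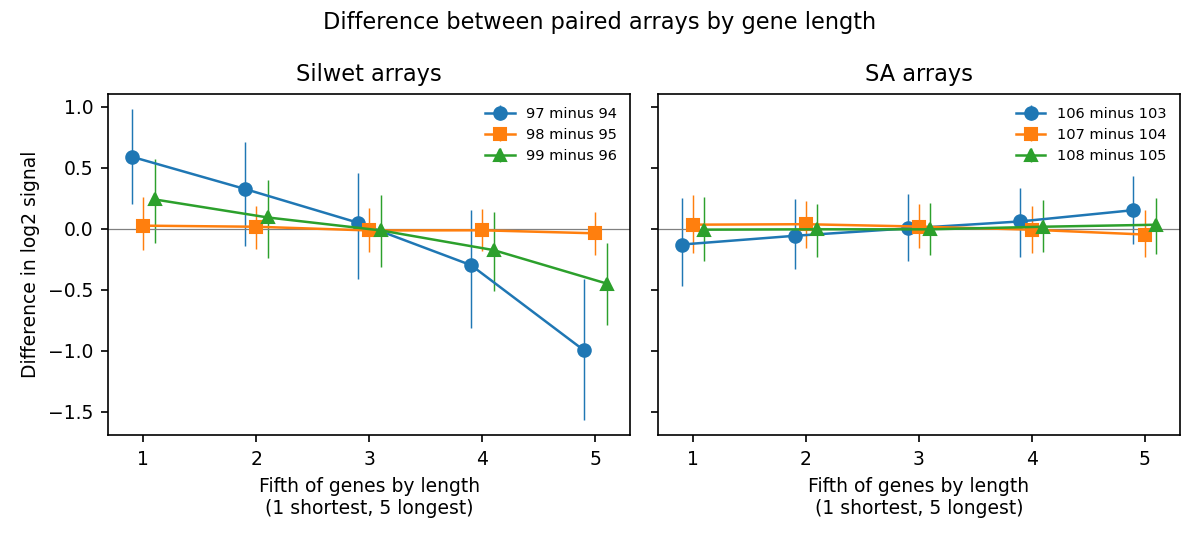
Median difference in log2 signal between paired arrays (y axis) for genes in 5 classes of length (x axis, 1 shortest to 5 longest), for the 3 silwet pairs on the left and the 3 SA pairs on the right; bars are the quartiles over genes. The pair of arrays 97 and 94 runs from 0.59 to -1.0 across the classes, the pair of arrays 98 and 95 stays within 0.04 of 0, and the SA pairs stay within 0.16 of 0.

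The ratio of 3' to 5' probe sets of the control transcripts, a measure of how complete the labelled RNA is, moved as well. For ubiquitin the log2 ratio was 2.11, 1.3 and 2.02 on arrays 97, 98 and 99, against 1.68, 1.73 and 1.47 on arrays 94, 95 and 96, so arrays 97 and 99 were the highest of the 6. For GAPDH it was 0.55, 0.12 and 0.12, against -0.17, -0.05 and -0.32, and the groups did not overlap. For actin it was 2.38, 2.3 and 1.98, against 1.54, 1.92 and 1.83, again without overlap. The part of RNA quality in the gene results was not tested. For that reason some of the differences below are also given without array 97, and some after subtraction of the trend with gene length. Where neither value is given, a difference was not set against array 97 or gene length here. The subtraction covered nuclear genes only, so transcripts of the chloroplast and mitochondrial genomes have no such value.

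In the SA step the differences of the 3 pairs correlated with gene length at a Spearman rho of 0.20, -0.10 and 0.04. The log2 3' to 5' ratio of ubiquitin was 1.4, 1.33 and 1.49 on SA arrays 106, 107 and 108. On SA arrays 103, 104 and 105 it was 1.81, 1.59 and 1.57, higher and without overlap. For GAPDH and for actin the ratios of these SA groups overlapped, so only ubiquitin separated them. By limma 2 probe sets passed, 1 higher (0.00628%) and 1 lower (0.00628%), and 516 higher (3.24%) and 507 lower (3.18%) had a p under 0.05 before adjustment. The silwet and the SA differences correlated at 0.08 over 15922 probe sets, and at 0.16 over 8638 after subtraction of the length trend, as a description over probe sets. The difference between both steps, tested as an interaction in limma, passed for 0 probe sets, with 763 higher (4.79%) and 1005 lower (6.31%) before adjustment and a lowest adjusted p of 0.367. No difference is therefore called particular to the silwet plants.

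Of the 7 probe sets that fell, 3 had a named gene: GSTU22, AT4G36580 and AT2G21640. GSTU22, a tau-class glutathione transferase that joins glutathione to toxic compounds, had 2.3, 3.71 and 3.11 on arrays 97, 98 and 99, against 4.71, 5.20 and 5.93 on arrays 94, 95 and 96. All 3 later-numbered arrays lay below all 3 others. It fell by 2.24 on the log2 scale (SE 0.32, limma adjusted p = 0.0223), and had -2.04 without array 97 and -2.53 after the length trend was subtracted. Its signals on arrays 97 to 99 lay below the median of each array, which limits how well the size of the fall is known. After SA it differed by -1.18 (SE 0.32).

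AT4G36580, an AAA-type ATPase, had 3.20, 4.28 and 4.23 on arrays 97, 98 and 99, against 5.87, 5.92 and 5.78 on arrays 94, 95 and 96, and the values on arrays 94 to 96 lay close together. It fell by 1.96 (SE 0.29, limma adjusted p = 0.0224), and had -1.81 without array 97. Its signals on arrays 97 to 99 also lay below the median of each array, which limits how well the size of this fall is known. After SA it differed by -0.67, and the earlier silwet step, arrays 94 to 96 against arrays 91 to 93, gave -0.41. That earlier step shares arrays 94, 95 and 96 with the present one.

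AT2G21640 encodes UPOX, a mitochondrial protein known as a marker of oxidative stress. It had 6.16, 6.02 and 5.96 on arrays 97, 98 and 99, the narrowest spread of the called falls with a name (SD 0.10), against 7.30, 7.43 and 8.08 on arrays 94, 95 and 96. It fell by 1.56 (SE 0.23, limma adjusted p = 0.0223), and the difference was -1.76 without array 97. On SA arrays 106, 107 and 108 it had 5.52, 5.46 and 5.66, against 6.28, 6.74 and 7.72 on SA arrays 103, 104 and 105, a difference of -1.36 (SE 0.23). On silwet arrays 91, 92 and 93 it had stood at 9.70, 9.82 and 10.31. The remaining 4 called falls were probe sets not named here, with differences from -2.62 to -1.35.

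A list of 24 loci known to rise when mitochondria are impaired was drawn up after UPOX and its like had been seen, so its members are described and not tested as a list. For 12 of them a named probe set was tested. All 12 had a difference below 0, where 56% of all tested probe sets did. Of the 12, 10 had an unadjusted p under 0.05, against 14% of all tested probe sets for lower ones, and 1 passed the adjusted test, UPOX itself. The median difference was -1.09, and it was -1.17 without array 97, -1.0 in the pair of arrays 98 and 95 and -1.33 after the length trend was subtracted. In 11 of 12 the sign was the same in all 3 pairs (23.5% of all tested probe sets were lower in all 3), and in 9 the groups did not overlap (9.13%). The mean log2 signal over the 12 was 6.42, 6.46 and 6.51 on arrays 97, 98 and 99, against 7.41, 7.46 and 7.95 on arrays 94, 95 and 96.

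**Figure D2:**
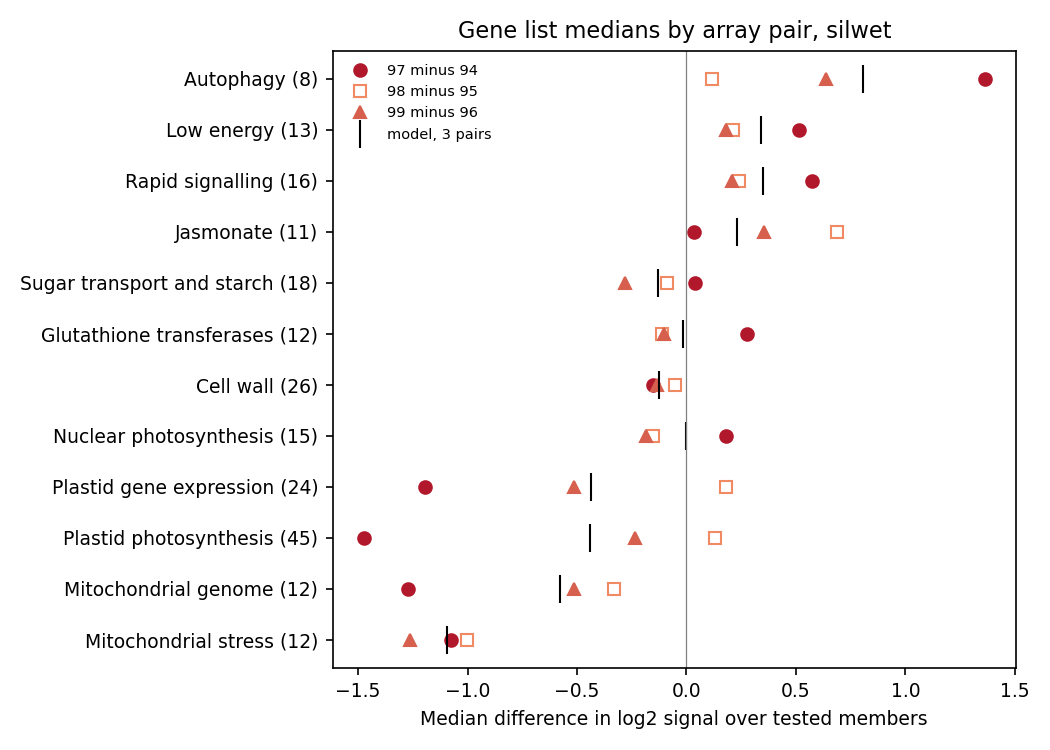
Median difference in log2 signal over the tested members of 12 gene lists (x axis) for each silwet pair and for the model over 3 pairs; the number of tested members stands in parentheses. The mitochondrial stress list lies near -1 in every pair, at -1.07, -1.0 and -1.26, whereas plastid photosynthesis runs from -1.47 in the pair of arrays 97 and 94 to 0.13 in the pair of arrays 98 and 95.

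NDB4 and NDB2, which encode alternative NADH dehydrogenases on the outer face of the inner mitochondrial membrane, belong to this group. NDB4 had 1.97, 2.88 and 2.82 on arrays 97, 98 and 99, against 5.09, 4.86 and 4.91 on arrays 94, 95 and 96, so that all 3 arrays were dim and apart from the others. Its difference was -2.40 (SE 0.48, limma adjusted p = 0.0551) and -2.41 without array 97. NDB2 had 6.65, 7.59 and 7.79, against 8.29, 7.97 and 8.53, with a difference of -0.92 (SE 0.26, limma adjusted p = 0.109). The groups did not overlap for NDB2 either, and array 97 was its lowest value.

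AT5G51440, a small heat shock protein of mitochondria, had 5.32, 5.13 and 5.40 on arrays 97, 98 and 99, against 6.57, 6.50 and 7.45 on arrays 94, 95 and 96, a difference of -1.56 (SE 0.31, limma adjusted p = 0.0551). Array 97 lay between arrays 98 and 99, and the difference was -1.69 without it. GSTU25, another tau-class glutathione transferase, had 4.83, 4.24 and 4.08, against 6.01, 6.01 and 6.59 (difference -1.82, SE 0.32). AT2G04050, a MATE transporter, a family that exports toxic compounds and metabolites, had 5.22, 5.87 and 5.65, against 7.11, 6.91 and 7.44 (difference -1.58, SE 0.35). None of the 3 passed, and in each the groups did not overlap.

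The members of smaller size were AT5G09570, a mitochondrial protein with paired cysteine motifs (-1.26, SE 0.39), AT2G32020, an acetyltransferase of the GNAT family (-0.93, SE 0.22), AT2G41730 (-0.75, SE 0.21) and AT5G43450, a 2-oxoglutarate-dependent oxygenase (-0.53, SE 0.18). AT5G14730 and AT5G64400, a relative of AT5G09570, had -0.40 (SE 0.24) and -0.06 (SE 0.13). The difference of AT5G64400 turned to 0.13 after the length trend was subtracted.

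The same 12 transcripts all had a difference below 0 in the SA step as well, where 48% of all tested probe sets did, with a median of -0.93. In 10 of 12 all 6 pairs, 3 silwet and 3 SA, were lower, against 4.73% of all tested probe sets. The mean signal over the list was 5.90, 6.12 and 6.04 on SA arrays 106, 107 and 108, against 6.67, 6.74 and 7.48 on SA arrays 103, 104 and 105. In the earlier silwet step, which shares arrays 94 to 96, the median was -1.67, and the list stood at 8.86, 8.92 and 9.73 on silwet arrays 91, 92 and 93. The members were chosen with these arrays known, so the counts describe the group and are not evidence of its direction.

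**Figure D3:**
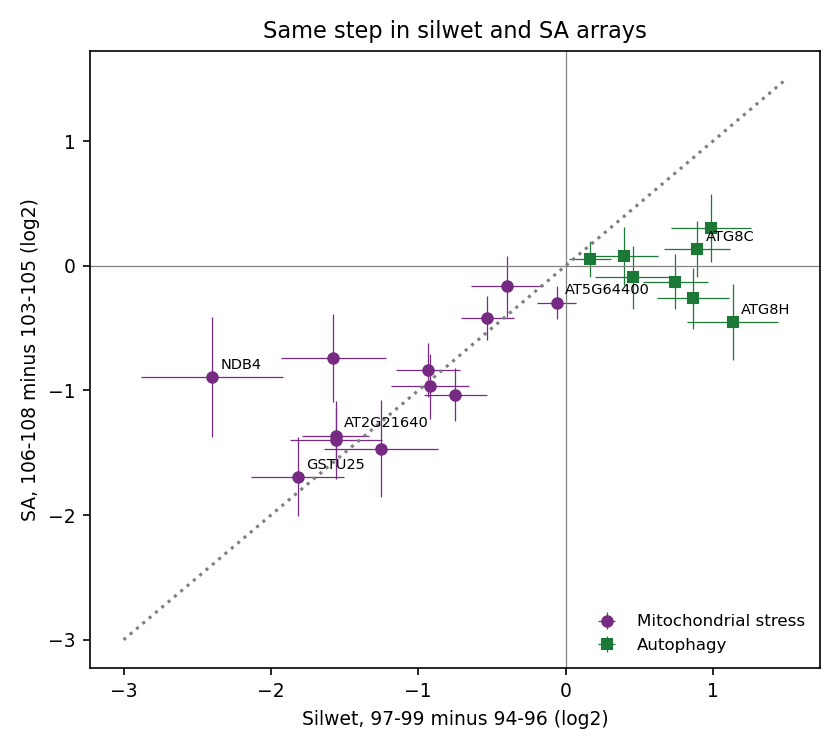
Differences in log2 signal of the silwet step (x axis, arrays 97 to 99 minus arrays 94 to 96) and the SA step (y axis, arrays 106 to 108 minus arrays 103 to 105) for the 12 mitochondrial stress and 8 autophagy transcripts; bars are the SE of the model and the dotted line marks equal differences. All mitochondrial stress transcripts lie below 0 on both axes, and the autophagy transcripts lie above 0 on the silwet axis with SA differences between -0.45 and 0.30.

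Of 12 tested members of the glutathione transferase family, 2 had an unadjusted p under 0.05, both lower, a share near the 14% of all tested probe sets, and these were GSTU22 and GSTU25. The median of the family was -0.01, and -0.25 after the length trend was subtracted. Among further named transcripts that did not pass, AT2G20720 had 4.46, 5.38 and 5.39 on arrays 97, 98 and 99, against 6.62, 6.88 and 7.44 on arrays 94, 95 and 96 (difference -1.90, SE 0.37). SBT3.5, a subtilisin-like protease, had 5.19, 6.78 and 6.17, against 7.38, 7.66 and 8.13 (difference -1.68, SE 0.51). For both the groups did not overlap.

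Among the transcripts that rose, the first was AT3G15630, which stands in the list of transcripts known to rise in the dark or when sugar is low. It had 9.81, 8.19 and 9.36 on arrays 97, 98 and 99, against 6.58, 7.05 and 6.91 on arrays 94, 95 and 96, and every array of the first group was higher than all of the second, as was the case for 7.7% of all tested probe sets. It rose by 2.27 (SE 0.29, limma adjusted p = 0.0223), 4.83-fold, with differences of 2.02 without array 97 and 1.95 after the length trend was subtracted. In the SA step it differed by 1.6 (SE 0.29), and in the earlier silwet step, with the shared arrays, by -1.16.

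AT5G11070 had 9.11, 7.94 and 8.30 on arrays 97, 98 and 99, against 6.93, 7.01 and 7.01 on arrays 94, 95 and 96. It rose by 1.47 (SE 0.25, limma adjusted p = 0.0429), with a difference of 1.27 without array 97. AT4G36500 had 9.97, 9.14 and 9.86, against 8.51, 8.53 and 8.72, and rose by 1.07 (SE 0.17, limma adjusted p = 0.0339). In both transcripts array 97 was the highest and array 98 the lowest of the first group, and no array overlapped. A probe set not named here was the other called rise, with 2.25 (SE 0.37). The functions of AT5G11070 and AT4G36500 are not described here.

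**Figure D4:**
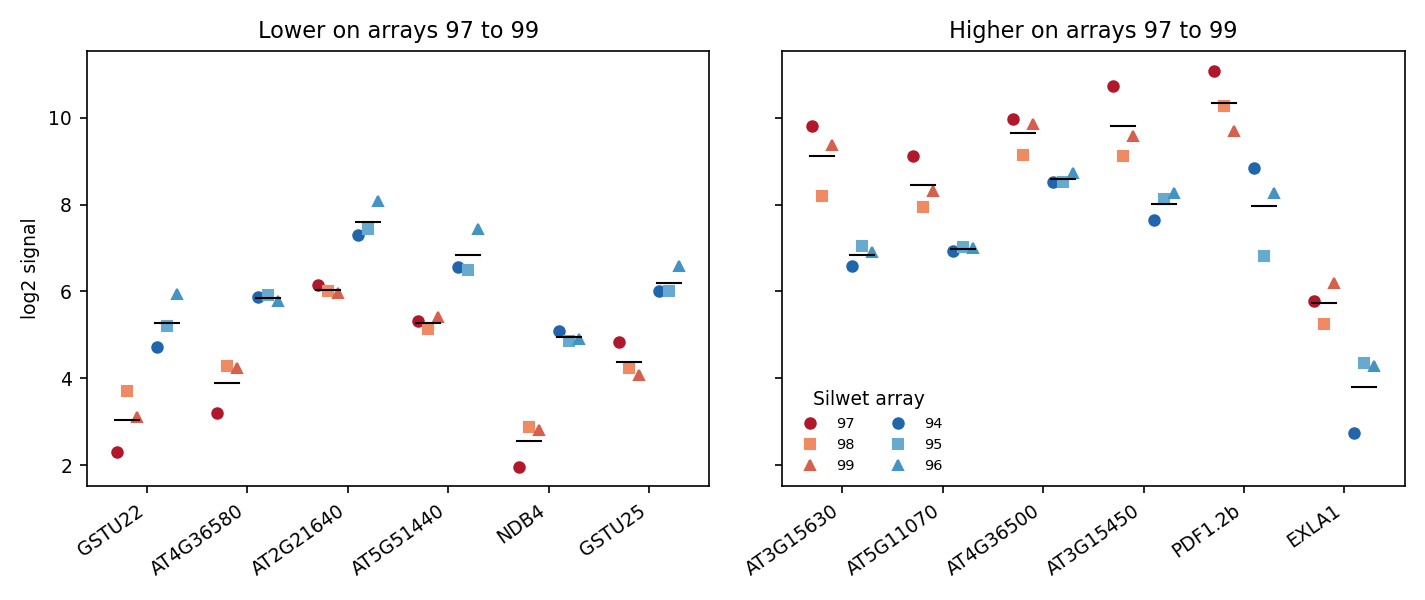
Log2 signal (y axis) of 6 transcripts lower and 6 transcripts higher on silwet arrays 97, 98 and 99 (red) than on silwet arrays 94, 95 and 96 (blue), 1 point per array, with black lines at the group means. GSTU22 and AT4G36580 among the falls and AT3G15630 among the rises separate without overlap, and array 97 is the highest red point in 5 of the 6 rises.

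Beside these, 7 named transcripts measured higher without passing. They were the largest of 478 that had a p under 0.05 before adjustment, agreed in sign over the 3 pairs and lay above the median signal, where 385 lay lower. PDF1.2b and PDF1.2, plant defensins of the jasmonate and ethylene response, had the largest. PDF1.2b had 11.08, 10.27 and 9.68 on arrays 97, 98 and 99, against 8.84, 6.81 and 8.26 on arrays 94, 95 and 96 (difference 2.38, SE 0.54). PDF1.2 had 11.28, 10.21 and 9.94, against 9.92, 7.23 and 8.01 (difference 2.09, SE 0.51). These genes are near-identical copies, and the probe sets may measure both. Of the 11 tested jasmonate transcripts, these defensins included, 8 were higher and 3 lower, against 44% and 56% of all tested probe sets. Of the higher ones 4 had an unadjusted p under 0.05 (9.34% of all), and the median was 0.23.

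AT3G15450, which encodes a protein of the aluminium-induced family and is known as a dark-induced transcript, had 10.72, 9.12 and 9.58 on arrays 97, 98 and 99, against 7.64, 8.12 and 8.26 on arrays 94, 95 and 96. Its difference was 1.80 (SE 0.34, limma adjusted p = 0.0551), and 1.4 in the SA step. AT2G24550 (2.02), AT1G30250 (1.89) and AT3G06070 (1.83) followed, with SA differences of 1.34, 1.68 and 1.18. AT2G24550 was highest on array 97, with 8.89, 6.32 and 7.28 on arrays 97, 98 and 99, against 5.19, 5.46 and 5.80 on arrays 94, 95 and 96, and the difference was 1.37 without it.

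Over the 13 tested transcripts of the 41 loci of the low-sugar list, also drawn up after values had been seen, 8 were higher and 5 lower, 6 of the higher reached an unadjusted p under 0.05 (9.34% of all tested probe sets), 1 passed, and the median was 0.34. Beside AT3G15630 and AT3G15450, AT5G19120, an aspartyl protease family protein, had 1.6 (SE 0.49), AT1G23390, a kelch-repeat F-box protein, 1.01 (SE 0.30) and AT4G27450 0.85 (SE 0.37). The list also holds enzymes of branched-chain amino acid breakdown, which act in mitochondria, and none of them had an unadjusted p under 0.05. MCCA and MCCB, the subunits of methylcrotonyl-CoA carboxylase, had -0.75 (SE 0.72) and -0.50 (SE 0.33). ETFQO, which passes electrons to ubiquinone, had -0.59 (SE 0.29), and IVD, isovaleryl-CoA dehydrogenase, -0.08 (SE 0.15). After the length adjustment MCCA, MCCB and ETFQO had -0.25, -0.29 and -0.16, and IVD turned to 0.24, as it did to 0.06 with quantile normalisation. A separate carbon starvation list also holds MCCA, MCCB, ETFQO and IVD. Of its 7 tested transcripts 3 were higher and 4 lower, against 44% and 56% of all tested probe sets. Of the higher, 1 had an unadjusted p under 0.05 (9.34% of all). The median of that list was -0.08 with and without array 97, and 0.24 after the length adjustment.

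The autophagy transcripts were higher together on arrays 97 and 99. All 8 tested transcripts, 7 of them ATG8 genes, had a difference above 0 (44% of all tested probe sets), 5 had an unadjusted p under 0.05 (9.34% of all were that and higher), and 0 passed. Their mean log2 signal was 8.02, 6.85 and 7.69 on arrays 97, 98 and 99, against 6.67, 6.73 and 7.05 on arrays 94, 95 and 96. The median difference was 0.80 in the model, 0.68 without array 97, 1.36, 0.12 and 0.64 in the 3 pairs, and -0.02 in the SA step.

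Of the ATG8 genes, ATG8H had 7.12, 5.36 and 6.48 on arrays 97, 98 and 99, against 5.05, 5.01 and 5.50 on arrays 94, 95 and 96, with a difference of 1.13 (SE 0.31). ATG8C had 8.36, 7.24 and 8.0, against 6.83, 6.84 and 7.25 (difference 0.89, SE 0.22). Array 98 lay within the range of the second group for both, so the height came from arrays 97 and 99. ATG8E, ATG8B and ATG8D had differences of 0.99, 0.86 and 0.75, ATG8G and ATG8F 0.46 and 0.39, and ATG3, the enzyme that attaches ATG8 to lipid, 0.17. With array 98 alone against arrays 94 to 96, ATG8G had -0.16.

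Transcripts of the chloroplast genome, which encodes the core of the photosystems and part of its own ribosomes and polymerase, are given as 2 lists. Of 45 tested plastid photosynthesis transcripts 42 were lower (56% of all tested probe sets), 12 with an unadjusted p under 0.05 (14% of all) and 0 that passed. The mean log2 signal was 7.79, 9.20 and 8.68 on arrays 97, 98 and 99, against 9.41, 9.02 and 9.02 on arrays 94, 95 and 96, and array 98 lay within the others' range. The median difference of -0.44 became -0.19 without array 97, and it was 0.13 in the pair of arrays 98 and 95. In the SA step 38 of the 45 were lower (48% of all tested probe sets), with a median of -0.21. Of 24 tested transcripts of plastid gene expression 20 were lower (56% of all tested probe sets), 6 with an unadjusted p under 0.05 (14% of all). The median was -0.44, or -0.24 without array 97, and the 3 pairs had -1.20, 0.18 and -0.51. Their mean log2 signal was 7.92, 8.95 and 7.66 on arrays 97, 98 and 99, against 9.17, 8.65 and 8.32 on arrays 94, 95 and 96. Array 99 was the lowest here, and array 98 again lay within the range of the second group.

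The transcript of psbA encodes the D1 protein of photosystem II, which is replaced often in the light. It had 4.90, 10.28 and 7.90 on arrays 97, 98 and 99, against 11.25, 10.79 and 8.33 on arrays 94, 95 and 96 (difference -2.43, SE 1.08), and -1.19 without array 97. Its values on arrays 96 and 99, both of replicate number 3, lay below those of the other arrays except array 97. psaA, for a reaction centre protein of photosystem I, had 4.32, 8.83 and 7.24, against 10.31, 7.83 and 9.76 (difference -2.50, SE 0.89). psaB, its partner, had 8.16, 10.91 and 10.22, against 11.28, 10.94 and 11.13 (difference -1.35, SE 0.40), and petB, of the cytochrome b6f complex, had -0.34 (SE 0.12).

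Transcripts of the mitochondrial genome were lower in all 3 pairs by their median, at -1.27, -0.33 and -0.51. Of 12 tested, 11 were lower (56% of all tested probe sets) and 3 of these had an unadjusted p under 0.05 (14% of all). nad4L and nad1, of respiratory complex I, had -0.95 (SE 0.30) and -0.81 (SE 0.29), and cox1, of cytochrome c oxidase, -0.96 (SE 0.34). Without array 97 these were -0.85, -0.79 and -0.72. The median of the list in the SA step was -0.29.

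Nuclear transcripts of photosynthesis were split. Of 15 tested, 7 were higher and 8 lower and the median was 0.00, or -0.21 after the length adjustment. LHCB4.3, a minor antenna protein of photosystem II, had 7.63, 8.45 and 7.47 on arrays 97, 98 and 99, against 6.62, 7.43 and 6.79 on arrays 94, 95 and 96. The replicates of number 2 were the highest in both groups, and the difference was 0.91 (SE 0.16, limma adjusted p = 0.0551), 0.98 without array 97 and 1.56 in the SA step. RCA and SBPASE, a Calvin cycle phosphatase, had -0.61 (SE 0.24) and -0.27 (SE 0.11).

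Transcripts of the longest genes among the named falls had the pattern of the length trend. AT1G01320 (9511 bp) had 6.75, 8.67 and 6.21 on arrays 97, 98 and 99, against 9.49, 8.99 and 8.13 on arrays 94, 95 and 96, a difference of -1.66 (SE 0.56) that was -0.77 after the trend was subtracted. AT4G28080 (9505 bp), a relative of AT1G01320, had 6.75, 9.10 and 6.45, against 9.24, 9.26 and 8.71, a difference of -1.64 (SE 0.51) and -0.75 adjusted. In both, array 98 was close to the second group and arrays 97 and 99 were low. ILA (18607 bp), TPP2, a large peptidase, and TIC, a clock-associated protein, had -1.32, -1.49 and -1.52, and -0.13, -0.61 and -0.80 after adjustment. These 3 genes were chosen after their values had been seen.

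Clock transcripts of the late day, listed after values had been seen, split by replicate. COR27, a cold- and light-regulated repressor that acts with the clock, had 9.86, 8.35 and 8.75 on arrays 97, 98 and 99, against 8.17, 8.03 and 5.67 on arrays 94, 95 and 96, a difference of 1.70 (SE 0.52). AT4G33980, its relative COR28, had 8.40, 7.26 and 7.58, against 7.20, 6.81 and 4.64 (difference 1.53, SE 0.43). AT1G07050, a protein with a CCT domain, had 9.08, 8.43 and 8.66, against 8.11, 8.12 and 6.30 (difference 1.21, SE 0.48). For all 3, array 96 was the lowest of the 6 by more than 1 log2 unit, and the pair of arrays 99 and 96 carried the most of the difference, with 3.07, 2.94 and 2.36. SA array 105, also of replicate number 3, was low as well, at 6.14, 4.88 and 7.05, against 8.64, 6.80 and 7.99 on SA array 103 and 8.41, 6.98 and 8.41 on SA array 104. GI, a long clock gene of the evening, went the other way, at 6.63, 8.92 and 6.89, against 9.0, 8.77 and 8.28 (difference -1.20, SE 0.50, and -0.55 after the length adjustment). In a separate list of clock and light transcripts, GI among them, 3 were tested. Of these 0 were higher and 3 lower, against 44% and 56% of all tested probe sets. The median of that list was -0.53, or -0.41 without array 97.

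Cold and drought transcripts followed the same low array, array 96. COR15B, COR47, LTI30 and COR15A, which protect membranes and proteins during freezing and water loss, had differences of 0.71 (SE 0.28), 0.55 (SE 0.25), 0.62 (SE 0.25) and 0.32 (SE 0.34). COR47 had 10.55, 9.86 and 10.3 on arrays 97, 98 and 99, against 10.17, 9.92 and 8.96 on arrays 94, 95 and 96. Array 98 lay below its partner array 95, and array 96 was again the lowest. None of the 4 passed.

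Sugar transporters and enzymes of starch differed in direction. SWEET17, a fructose transporter of the vacuole, had 8.77, 7.59 and 8.72 on arrays 97, 98 and 99, against 7.29, 6.94 and 7.50 on arrays 94, 95 and 96, with no overlap. Its difference was 1.12 (SE 0.22, limma adjusted p = 0.0551), 1.08 without array 97 and 1.35 after the length adjustment. SWEET2 and SWEET1 had 0.83 (SE 0.27) and 0.68 (SE 0.24). SBE2.2, a starch-branching enzyme, and TMT2, a sugar importer of the vacuole, had -0.88 (SE 0.25) and -0.81 (SE 0.23), which came to -0.24 and -0.41 after the length adjustment. Over the 18 tested transcripts 6 were higher and 12 lower, with a median of -0.13, or -0.02 after the length adjustment.

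In the cell wall list 11 of 26 were higher and 15 lower, and the median was -0.12, or 0.00 after the length adjustment. EXLA1, an expansin-like protein, had 5.79, 5.26 and 6.18 on arrays 97, 98 and 99, against 2.74, 4.35 and 4.29 on arrays 94, 95 and 96, a difference of 1.95 (SE 0.39, limma adjusted p = 0.0551). EXPB1, a beta-expansin that loosens the wall, had 4.63, 4.91 and 4.97, against 5.46, 6.03 and 6.01 (difference -1.0, SE 0.24), and EXPB3 had -0.91 (SE 0.29). The groups did not overlap for EXLA1 or EXPB1.

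Of 16 tested genes of rapid signalling, 12 were higher (44% of all tested probe sets), 7 of these with an unadjusted p under 0.05 (9.34% of all), and 1 was lower at that p. The median was 0.35, and 0.18 after the length adjustment. It was -1.21 in the earlier silwet step, with the shared arrays. CML42, a calmodulin-like calcium sensor, had 7.67, 7.27 and 7.93 on arrays 97, 98 and 99, against 6.22, 6.67 and 7.17 on arrays 94, 95 and 96 (difference 0.94, SE 0.19, limma adjusted p = 0.0551). RR16, a type-A response regulator that dampens cytokinin signalling, is not among these 16 but in a separate cytokinin list with 2 tested transcripts. It had 6.31, 6.06 and 6.12, against 4.37, 5.04 and 5.35 (difference 1.24, SE 0.25). ARR15, the other transcript of that list, had a difference of 0.06 (SE 0.34). For CML42 and RR16, all arrays of the first group lay above the second. STZ, a zinc-finger repressor, had 1.03 (SE 0.35), of which 0.47 remained without array 97.

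Markers of senescence gave little. Of 7 tested, 5 were higher and 2 lower, 2 of the higher with an unadjusted p under 0.05 (9.34% of all tested probe sets were that). The median was 0.17, and it was 0.07 without array 97 and 0.10 after the length adjustment. SAG29, a sugar transporter of senescing leaves, had 6.42, 4.93 and 6.79 on arrays 97, 98 and 99, against 3.47, 4.49 and 2.92 on arrays 94, 95 and 96 (difference 2.42, SE 1.01, limma adjusted p = 0.182). WRKY6, a senescence-linked transcription factor, had 0.65 (SE 0.30), WRKY53, another, 0.13 (SE 0.25), and SAG101, a lipase-like defence protein, -0.31 (SE 0.20). WRKY53 turned to -0.05 after the length adjustment. The smallest unadjusted p in the list was that of SAG29.

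After the trend with gene length was subtracted, over 8638 named nuclear probe sets, limma called 19 higher (0.22%) and 17 lower (0.197%), and 6 of the 6 testable calls of the full fit were among them. Without the subtraction the same 8638 probe sets gave 35 higher (0.405%) and 17 lower (0.197%). With array 97 left out as well, 1 was higher and 5 were lower, 4 of them calls of the full fit. AT2G21640 had -1.80 (SE 0.23, limma adjusted p = 0.00251), GSTU22 -2.53 (SE 0.33, limma adjusted p = 0.00291) and AT5G51440 -1.82 (SE 0.30, limma adjusted p = 0.0228) after subtraction. The rise with the smallest p there was that of AT3G15630, with 1.95 (SE 0.24, limma adjusted p = 0.00251).

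None of the gene families and functions that follow had a member that passed. Their medians ran from -0.25 to 0.12, against -0.08 for all probe sets. Glycosyltransferases, which attach sugars to small molecules, had 13 higher and 17 lower of 30 (median -0.09). Cytochrome P450 enzymes had 7 higher and 9 lower of 16 (median -0.02). Histones, tubulins and cell division genes had 7 higher and 11 lower of 18 (median -0.10), and flowering genes 9 higher and 5 lower of 14 (median 0.12, and -0.01 without array 97). Protein folding in the endoplasmic reticulum had 3 higher and 6 lower of 9 (median -0.25), which was -0.08 without array 97.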

How the data were processed

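Per the labels, ATH1 arrays measured total RNA from 18 Tsu-1 samples. The authors deposited intensity values on a linear scale, 1 per probe set and array, made with MAS5 per the submitters' processing notes; the version and the scanner settings are not given in the sources used here. The 2% trimmed mean of each array was about 100.01, so the values were used without further scaling. The number of arrays limits the precision.

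Values were taken as log2. The 64 controls and the dimmest 30% of the other probe sets were left out, which left 15922. Low MAS5 signals scatter widely on the log2 scale. limma 3.58.1 in R 4.3.3 fitted 6 groups of 3 arrays (treatment by triplet) with the replicate number as a block and a trended prior. P-values were adjusted by Benjamini-Hochberg over the 15922, and 0.05 was the threshold. Differences are silwet arrays 97 to 99 minus arrays 94 to 96, and errors are the SE of the model. The fit was tested on simulated data with changes planted in single probe sets and noise independent between probe sets. Those runs held no shift shared across an array, so they do not show how the fit handles one. Names came from the platform annotation, updated through the RefSeq table of TAIR10.1: 8743 tested probe sets had 1 gene, and the brightest stood for a gene. Genomic lengths came from that table. For the length adjustment, each array's deviation from the probe set mean was regressed on log2 length (natural spline, 4 degrees of freedom) and subtracted.

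The genes with full values are the called ones, filled to 10 rises and 10 falls by the largest differences with an unadjusted p under 0.05, the same sign in all 3 pairs and a mean above the median, and the list members with the smallest p. Members, lists and tests were chosen with earlier results of these data known. The mitochondrial stress, low-sugar and evening clock lists were added after values were seen, and so were AT3G02480, AT1G05340, ILA, TPP2, TIC, MCCA and IVD. No list was tested. The alternatives were single arrays left out, no block, only 6 arrays, array weights, quantile normalisation, other filters, a floor, no trend and the length adjustment.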

Additional observations from a re-analysis of the deposited data

Results flagged for a closer look

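For 10 of 91 named transcripts that were looked at, all 3 silwet pairs moved one way and all 3 SA pairs the other. The share of all tested probe sets with that pattern was not computed. The count can therefore not be read as more or less than background. The opposite directions were picked out after the values were seen, and that sign pattern itself was not tested. The interaction in limma, silwet difference minus SA difference, did not pass for any of them, with adjusted p from 0.367 to 0.618. The silwet difference minus the SA difference was 4.21 for AT3G02480, a protein of the late embryogenesis abundant family, which had 7.39, 4.53 and 5.95 on silwet arrays 97, 98 and 99, against 2.31, 1.25 and 2.70 on silwet arrays 94, 95 and 96. It was 3.82 for SAG29, 3.01 for AT1G05340, a small membrane protein of stress responses, and 1.94 for XTH29, a wall-remodelling enzyme. It was 1.59 for ATG8H, 1.22 for SWEET2 and 1.11 for CML38, a calmodulin-like protein. It was -1.80 for TIC, -1.18 for SBE2.2 and -1.05 for MCCA. Some SA differences were close to 0: for AT3G02480 the 3 SA pairs had -0.95, -0.06 and -0.03. The signals of AT3G02480 and SAG29 on silwet arrays 94 to 96 lay below the median of each array, which limits how well their sizes are known. Groups of 3 arrays were not tested for outlying arrays.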

How the results depend on the processing

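The count of probe sets that passed between silwet arrays 97 to 99 and 94 to 96, 11 in the reported fit, depended on the arrays in the fit more than on the scaling. With 1 of the 6 arrays left out it ran from 0 to 1539. It was 0 with no replicate block, 0 with only the 6 silwet arrays and the block, 0 with only these and no block, 1611 without array 100, 4901 with array quality weights and 64 with a floor at the 20th percentile of signal. Among alternatives chosen after seeing the data it was 52 over named nuclear genes, 36 with the length adjustment, 6 with this and array 97 left out, 29 without arrays 97 and 100 and 0 without arrays 97 and 99. All 11 passed again without array 98, without array 100, with array weights, with quantile normalisation and with the floor. The cause of these changes was not tested. The replicate numbers did not clearly pair these arrays: deviations of same-numbered arrays correlated at -0.05, 0.05 and 0.36, so the numbers may mark only a number, and the fit with no replicate block is the 0 given above. The higher share of calls was 36.4% in the reported fit, 56.2% with the floor, 67.3% over named nuclear genes, 52.8% with the length adjustment and 16.7% with this and array 97 left out. In the SA step, 2 in the reported fit, the count was 0 with no replicate block, 252 with array weights, 5 with quantile normalisation, 1 over named nuclear genes, 20 with the length adjustment, 27 with this and array 97 left out, 79 without arrays 97 and 100, 6 without arrays 97 and 99, and 1 to 3 with 1 array left out. The interaction, 0 in the reported fit, was 1366 with array weights and 0 to 2 with 1 array left out. The median over all probe sets, -0.08, was 0.0218 with quantile normalisation, 0.0162 with the length adjustment, 0.0121 with this and array 97 left out, and -0.09 to -0.06 with 1 array left out. Probe sets whose groups did not overlap numbered 2679 of 15922 (7.7% higher and 9.13% lower), and 3593 of 15922 with array 97 left out. Groups of 2 and 3 arrays separate more often by order alone than groups of 3 and 3, so these counts cannot be compared. With 1 array left out, AT5G64400 ran from -0.171 to 0.112 (turned without array 96 or 99), WRKY53 from -0.0685 to 0.363 (turned without array 95 or 98) and PYK10 from -0.640 to 0.00211 (turned without array 99). With the length adjustment AT5G64400 turned to 0.128, WRKY53 to -0.0467 and IVD to 0.2393, and with this and array 97 left out PYK10 turned to 0.0132 and IVD to 0.1489. IVD also turned to 0.0583 with quantile normalisation. Without arrays 97 and 99, ATG8G turned to -0.165 and PYK10 to 0.473. No other named transcript turned. Signals near the bottom of the range, as for NDB4 and GSTU22 on array 97, limit the size of falls. Signals below the array median, as for AT4G36580 on arrays 97 to 99, limit how well that size is known. Low signals on arrays 94 to 96, as for AT3G02480, SAG29 and EXLA1, likewise limit how well the size of rises is known.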
